A study of Mus musculus with 12 samples.

Results

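Hypoxic cultures treated with EHT-1864, an inhibitor of Rac GTPases, were compared with hypoxic cultures given the solvent DMSO, over all 22206 transcript clusters of the array that are not controls. A transcript cluster is the set of probes read out for a transcript and is called a probe here. The comparison took 6 of the 12 arrays of the series, 3 with EHT-1864 and 3 with DMSO. The cells were mouse S100β-v-erbB/p53-/- TSC1 cells of the FVB-NJ strain. In them the S100β promoter, which is active in glia, drives v-erbB, an active relative of the epidermal growth factor receptor. All groups, the DMSO controls included, carry this oncogene and lack the tumour suppressor p53, and the labels used here do not say what TSC1 stands for or whether the cells are 1 clone. Cells stood for 16 h in hypoxia with DMSO, in hypoxia with 1 µM EHT-1864, in normoxia with DMSO or in hypoxia with BFA (brefeldin A, a blocker of transport from the endoplasmic reticulum to the Golgi). The last 2 groups, of 3 arrays each, appear only beside the main values. For BFA the sources used here name 1 µM in the treatment protocol and 0.1 µM in the series title. The labels speak of 3 independent cultures but do not tie array numbers to them, so p-values measure the spread between arrays, which may be technical.

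Rac proteins are small GTPases. Exchange factors load them with GTP, GTPase activating proteins turn them off, and active Rac binds the WAVE complex and PAK kinases to build branched actin through the Arp2/3 complex. Free actin monomers hold back cofactors of the transcription factor SRF, so actin assembly and SRF target genes are linked. In hypoxia the transcription factor HIF-1 is stabilised, binds short sequences with the core ACGTG or GCGTG, and raises genes of glucose uptake, glycolysis, pH control and vessel growth. Gliomas of the oligodendrocyte lineage carry transcription factors of oligodendrocyte progenitors, such as Olig2 and Sox10.

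EHT-1864 changed the signal of a large part of the transcripts. In limma, 6767 of 22206 probes passed an adjusted p of 0.05, which is 30.5%. Of all probes, 2893 (13.0%) were higher and 3874 (17.4%) were lower with EHT-1864. More falls than rises were large. Among the probes that passed, 1067 fell and 246 rose at least 2-fold. The 3 arrays of each group did not overlap for 6679 of the probes that passed, and for 10779 of all probes. A floor was set on each array at the 95th percentile of its negative control probes. By this floor, 581 of the falls went from above it on all DMSO arrays to below it on all EHT-1864 arrays, and 43 rises went the other way. Of the probes that passed, 1593 lay below the floor on all 6 arrays, 1237 of them higher and 356 lower, and no fold is given for those.

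The EHT-1864 arrays differed as a whole from the DMSO arrays. The SD of all log2 values was 2.38 to 2.44 with EHT-1864 and 2.50 to 2.52 with DMSO in hypoxia. The floor lay at 5.88 to 6.15 against 5.60 to 5.64, and 55.9 to 60.0% of probes against 51.6 to 51.9% were below it. The hybridization controls, spiked in before the chips were hybridized, read 10.20 to 10.33 against 9.69 to 9.82. The median log2 change of all probes was 0.06, but it was 0.12 and 0.22 in the 2 dimmer of 4 groups of 5551 or 5552 probes ranked by level, and −0.15 and −0.09 in the 2 brighter. The part of these shifts in the results was not tested. After another quantile normalization of the arrays, 2978 probes were higher and 3005 lower, and after subtraction of each array's median 3705 were higher and 3430 lower.

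**Figure D1:**
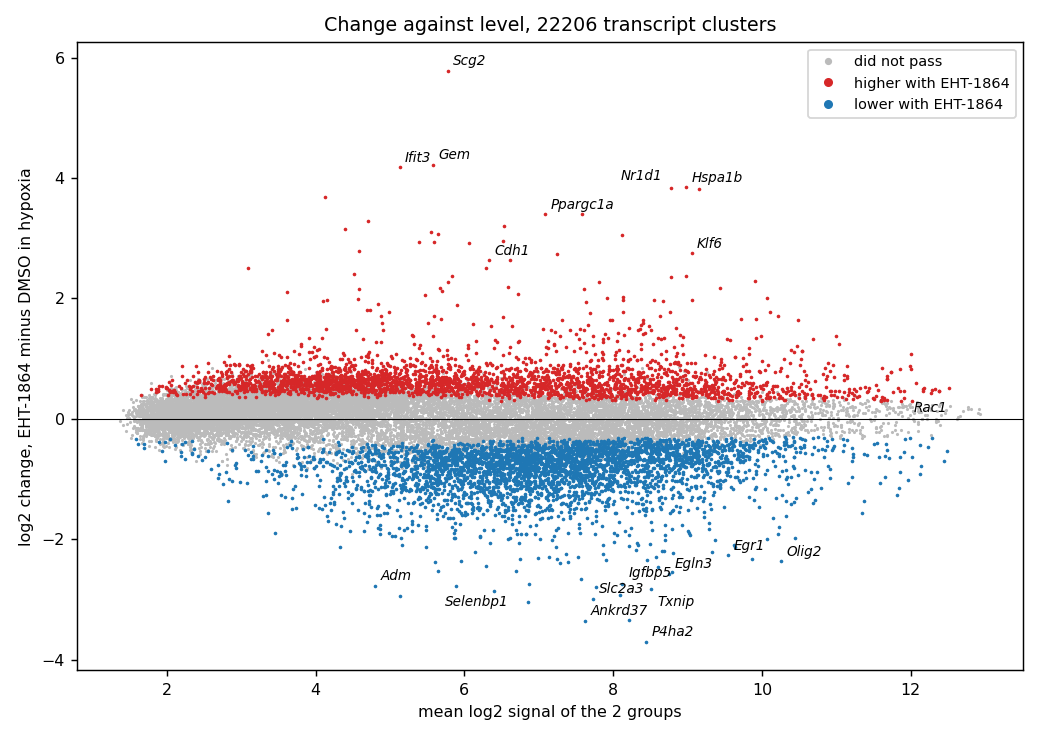
Each point is a probe, with the mean log2 signal of the 2 groups on the horizontal axis and the log2 change, EHT-1864 minus DMSO in hypoxia, on the vertical axis. Red points are the 2893 probes that were higher, blue points the 3874 that were lower, and grey points did not pass limma's adjusted p of 0.05. The rises reach 5.78 (Scg2) and the falls −3.70 (P4ha2), and Rac1 sits near 0.

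The 5 largest falls among genes were all of the HIF-1 target list: P4ha2, Ankrd37, Pdk1, Selenbp1 and Slc2a3. The list was chosen with earlier results of these data known, so their place in it is not a separate result. P4ha2, a subunit of the prolyl 4-hydroxylase of collagen, read 10.38, 10.17 and 10.32 on the DMSO arrays and 6.48, 6.39 and 6.89 on the EHT-1864 arrays, as log2 signal. The groups did not overlap, and the EHT-1864 arrays lay close to the 3 normoxia arrays, whose mean was 6.24. The log2 change was −3.70 ± 0.15 (standard error of the limma fit, n = 3 arrays a group), 13.0-fold lower (limma adjusted p = 2.33e-08). Ankrd37, a small ankyrin repeat protein, read 9.34, 9.29 and 9.28 with DMSO and 5.87, 5.67 and 6.32 with EHT-1864. Only 1 of its EHT-1864 arrays was above the floor, and the change was −3.35 ± 0.16. Pdk1, the kinase that shuts pyruvate out of the mitochondrial cycle, read 9.79, 9.99 and 9.88 with DMSO and 6.67, 5.83 and 7.15 with EHT-1864. All DMSO arrays were higher, and Pdk1 fell by 3.34 on the log2 scale (SE 0.25, limma adjusted p = 1.8e-06).

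The start regions of P4ha2 and Ankrd37 are shown because they hold the core of the HIF-1 binding sequence several times. They are 100-base stretches from the promoter table of RefSeq (assembly GRCm38.p6), 5′ to 3′ on the strand of the gene, with ACGTG and GCGTG on either strand in capitals (CACGT and CACGC when read from the other strand). The stretch of P4ha2 is chr11:54100813-54100912 on the plus strand, and that of Ankrd37 is chr8:45999992-46000091 on the minus strand.
P4ha2: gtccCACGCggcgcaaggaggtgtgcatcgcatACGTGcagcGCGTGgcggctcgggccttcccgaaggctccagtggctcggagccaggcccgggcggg
Ankrd37: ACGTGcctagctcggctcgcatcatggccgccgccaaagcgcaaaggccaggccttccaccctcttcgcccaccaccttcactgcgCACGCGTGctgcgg
Windows of 300 bases, 250 before and 50 after the start, were searched on both strands for ACGTG. It was found in 23 of 34 HIF-1 target genes with a window (67.6%) and in 10 of 14 glycolysis genes (71.4%), against 24.0% of 15691 genes of the array. GCGTG was found in 27 of the 34 (79.4%), against 43.1%. Lists that did not fall held these letters often too: ACGTG lay in 62.5% of circadian clock genes, 43.8% of heat shock genes and 42.9% of the 20 largest rises, and GCGTG in 87.5% of clock genes. The HIF-1 list is one of known targets, so its share does not bear on EHT-1864. A match is a run of letters and not a measured site.

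Among the 42 HIF-1 targets on the array there were 31 falls (73.8%, against 17.4% of all probes) and 2 rises (4.76%, against 13.0%). The other 9 did not pass, and the median log2 change was −1.33 against 0.06 for all probes. With genes below the floor in a group set to their bound, the median was −1.27. Glucose uptake and glycolysis fell together. Slc2a3, the glucose transporter GLUT3, fell by 2.99 (SE 0.18), from 9.34, 9.11 and 9.23 to 6.29, 6.08 and 6.35. All DMSO arrays were higher, and 2 of the 3 EHT-1864 arrays were above the floor. All 14 glycolysis genes fell, against 17.4% of all probes, with a median of −1.07. After quantile normalization 12 of the 14 passed as lower, and after median subtraction 13. The falls ranged from −0.47 for Gapdh, a dehydrogenase of the middle of the pathway, to −2.37 for Hk2, the hexokinase that traps glucose. Hk2 read 8.92, 8.24 and 8.56 with DMSO and 6.10, 6.46 and 6.06 with EHT-1864, without overlap. The phosphofructokinase Pfkl fell by 2.09 (SE 0.13) and the triosephosphate isomerase Tpi1 fell by 1.98 (SE 0.15). Ldha, which turns pyruvate into lactate, fell by 1.07 (SE 0.12), and Slc16a3, a HIF-1 target that exports the lactate, was at least 2.42-fold lower (limma adjusted p = 1.33e-05). Its measured means were 7.28 and 4.50.

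Other branches of the hypoxia response were lower too. Egln3, an oxygen-sensing prolyl hydroxylase that marks HIF for degradation, read 10.18, 9.89 and 10.05 with DMSO and 7.61, 7.07 and 7.72 with EHT-1864. The groups did not overlap, and Egln3 fell by 2.57 (SE 0.17, limma adjusted p = 5.48e-07). Its relative Egln1 fell by 2.12 (SE 0.21). The mitophagy genes Bnip3 and Bnip3l fell by 2.33 (SE 0.14) and by 1.47 (SE 0.12). Plod2, which hydroxylates lysines of collagen, fell by 2.35 (SE 0.16). Car9, the carbonic anhydrase of the cell surface, was at least 2.19-fold lower (limma adjusted p = 5.52e-06). Adm, the vessel peptide adrenomedullin, was at least 1.14-fold lower (limma adjusted p = 1.34e-06), with measured means of 6.19 and 3.42. The glycogen regulator Ppp1r3c was at least 4.72-fold lower (limma adjusted p = 8.92e-08), and Selenbp1, a selenium-binding protein, at least 5.13-fold lower (limma adjusted p = 1.52e-06). The 2 members that rose were Bhlhe41, a clock repressor, by 2.15 ± 0.20, and Cited2, which competes with HIF-1 for coactivators, by 0.53 ± 0.12.

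The normoxia arrays place these levels. Against normoxia, 2.11% of all probes were higher and 0.563% lower in hypoxia with DMSO, and 36 of the 42 HIF-1 target genes were higher and 0 lower, with a median of 2.11. With EHT-1864 in hypoxia, 8.10% of probes were higher and 14.3% lower than in normoxia, and 18 of the 42 were higher and 3 lower, with a median of 0.54. These comparisons share the normoxia arrays, and the first shares the DMSO arrays in hypoxia with the main comparison. For P4ha2 the value of EHT-1864 minus normoxia was 0.35 (limma adjusted p = 0.113), and for Pdk1 it was 0.52 (0.168). Vegfa, the main angiogenic factor, read 10.31, 10.67 and 10.48 with DMSO and 9.50, 8.83 and 9.65 with EHT-1864. It fell by 1.16 (SE 0.20) and was still 1.93 above normoxia (limma adjusted p = 2.18e-05). Slc2a1, the transporter GLUT1, fell by 0.98 (SE 0.14) and was 1.36 above normoxia. Ndrg1, a stress-induced gene, fell by 1.09 (SE 0.16) and was 2.92 above normoxia. The transcript of HIF-1α did not pass, although its arrays did not overlap. Hif1a read 9.32, 9.36 and 9.32 with DMSO and 9.27, 9.08 and 9.25 with EHT-1864, a change of −0.13 ± 0.13 (95% interval −0.42 to 0.16, limma adjusted p = 0.486).

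**Figure D2:**
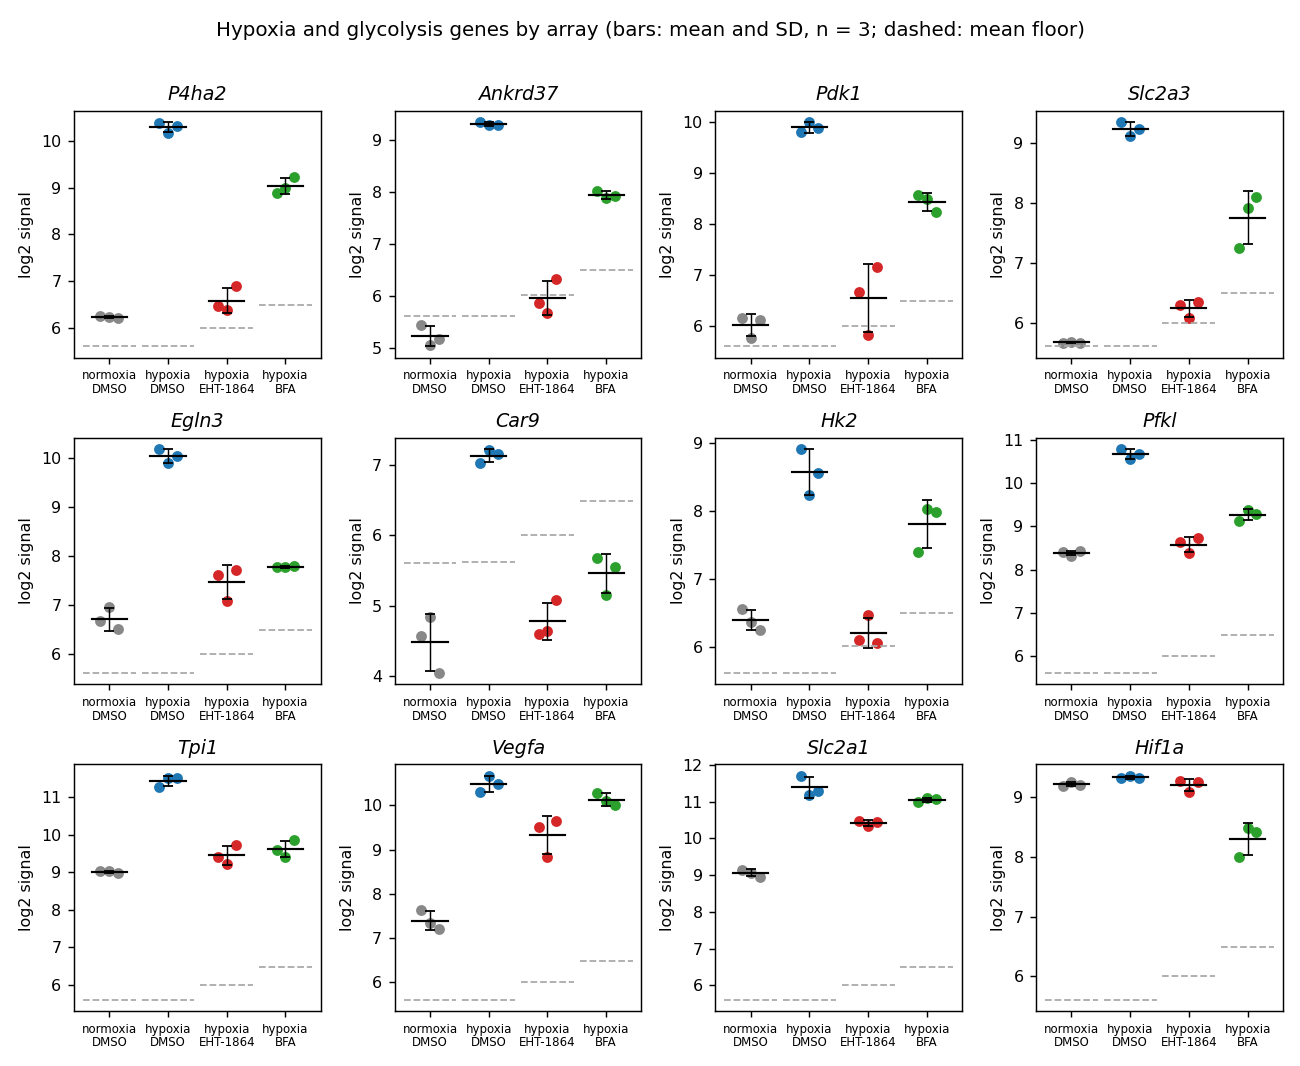
Each panel shows the log2 signal of a gene on the 3 arrays of each of the 4 groups, with the mean and SD as black bars and the mean floor of the group as a dashed line. P4ha2, Pdk1, Pfkl and Hk2 with EHT-1864 lie near the normoxia arrays, Vegfa and Slc2a1 lie between normoxia and hypoxia with DMSO, and Hif1a is lowest with BFA.

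Of the Rac transcripts, only Rac1 was bright enough to measure. Rac1, the widely expressed Rac, read 11.96, 11.91 and 12.01 with DMSO and 12.03, 12.04 and 11.87 with EHT-1864. The groups overlapped, and the change was 0.02 ± 0.11 (95% interval −0.22 to 0.25, limma adjusted p = 0.918), with a sign that turned under quantile normalization (−0.07). Rac2 and Rac3 were below the floor on all arrays of both groups, where Rac2 passed as higher (limma adjusted p = 0.00127) and Rac3 did not pass. Rhoj, a Cdc42-like GTPase, read 9.57, 9.71 and 9.69 with DMSO and 7.81, 7.66 and 7.73 with EHT-1864. It did not overlap and fell by 1.93 (SE 0.11, limma adjusted p = 1.75e-07). Rhoq, another relative of Cdc42, fell by 1.11 (SE 0.15). Rnd3, an atypical small GTPase, rose by 1.30 ± 0.12, from 6.40, 6.42 and 6.60 to 7.74, 7.83 and 7.76. Cdc42 differed by −0.16 ± 0.12 (limma adjusted p = 0.337).

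The exchange factor Dock10 was at least 2.84-fold lower (limma adjusted p = 1.62e-05), from 7.48, 7.66 and 7.40 with DMSO to measured values of 5.83, 6.06 and 5.43. Vav2 was at least 1.56-fold lower (limma adjusted p = 6.9e-05). The Dock partner Elmo2 fell by 1.31 (SE 0.24), and Prex1, an exchange factor for Rac, fell by 0.90 (SE 0.14). The exchange factor Plekhg1 rose by 1.65 ± 0.14. Of the GTPase activating proteins, Arhgap39 fell by 1.30 (SE 0.16) and Arhgap35 fell by 0.87 (SE 0.13).

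Of 34 genes of the Arp2/3 and WAVE complexes, PAK kinases and other effectors, 7 fell, 5 rose and 22 did not pass. These shares, 20.6% lower and 14.7% higher, lay near the 17.4% and 13.0% of all probes. The median was 0.06, equal to that of all probes (0.13, against 0.03, after quantile normalization). Within the Arp2/3 complex the subunits went apart. Arpc5 read 9.18, 9.39 and 9.31 with DMSO and 8.18, 7.55 and 8.26 with EHT-1864, without overlap, and fell by 1.29 (SE 0.17). Arpc1a fell by 0.89 (SE 0.12), whereas Actr3 rose by 0.43 ± 0.10. Arpc1b differed by 0.08 ± 0.11 (limma adjusted p = 0.637). In the WAVE complex, Brk1 rose by 0.50 ± 0.11 and Wasf1 differed by 0.06 ± 0.14 (limma adjusted p = 0.787). Limk1, a kinase that PAK activates to inhibit cofilin, fell by 0.81 (SE 0.16), and Pak3 differed by −0.18 ± 0.11 (limma adjusted p = 0.240).

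SRF and part of a list of its targets were higher. Srf read 7.42, 7.67 and 7.76 with DMSO and 9.18, 9.10 and 9.05 with EHT-1864. The groups did not overlap, and Srf rose by 1.49 ± 0.12 (2.81-fold, limma adjusted p = 3.57e-06). Of 25 SRF target genes, 11 rose (44.0%, against 13.0% of all probes), 2 of them below the floor in both groups. There were 2 falls (8.0%, against 17.4%) and 12 genes that did not pass, with a list median of 0.37. The list does not hold Egr1 and Egr2, which were lower (log2 changes −2.26 and −2.24) and are given with the ERK outputs. Cnn2, an actin-binding calponin, read 5.65, 5.86 and 5.53 with DMSO, of which 2 were above the floor, and 7.90, 7.47 and 7.88 with EHT-1864. It rose by 2.07 ± 0.20. Zyx, the focal adhesion protein zyxin, rose by 1.65 ± 0.13, from 7.64, 7.51 and 7.57 to 9.34, 9.28 and 9.04, without overlap. Vcl, its neighbour vinculin, rose by 0.79 ± 0.22 (limma adjusted p = 0.0162), a call that ended without DMSO array 2 (limma adjusted p = 0.053) or EHT-1864 array 2 (0.0599). Actb, which encodes the main cellular actin, differed by 0.08 ± 0.10 (limma adjusted p = 0.579).

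The start regions of Srf and Cnn2 are shown because each holds the CArG box, the sequence that SRF binds. In these 100-base stretches from RefSeq (GRCm38.p6) the boxes are in capitals. The stretch of Srf is chr17:46556185-46556284 on the minus strand and that of Cnn2 is chr10:79988494-79988593 on the plus strand.
Srf: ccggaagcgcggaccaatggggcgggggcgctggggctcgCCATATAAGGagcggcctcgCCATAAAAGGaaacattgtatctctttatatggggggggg
Cnn2: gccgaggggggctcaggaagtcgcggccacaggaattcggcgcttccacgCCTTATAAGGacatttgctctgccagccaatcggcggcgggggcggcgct
A CArG box lay in the window of 7 of 21 SRF target genes (33.3%), on either strand, against 1.70% of the genes of the array. The list is one of known SRF targets, so its share does not bear on EHT-1864. Among genes with a window, the box lay in 0 of 14 of the 20 largest rises and 1 of 15 of the 20 largest falls.

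YAP and TEAD targets, another group of genes tied to the cytoskeleton, went both ways. Of 22 measured, 7 rose (31.8%, against 13.0% of all probes) and 6 fell (27.3%, against 17.4%). The median of −0.11 turned to 0.02 under quantile normalization. The classical targets Ccn1 and Ccn2 rose by 0.92 ± 0.22 and by 0.66 ± 0.16. Igfbp3, a binding protein of insulin-like growth factors, fell by 2.10 (SE 0.14), from 8.94, 8.93 and 8.86 to 6.80, 6.57 and 7.07. Nt5e, an enzyme that makes adenosine, was at least 1.70-fold lower (limma adjusted p = 2.32e-04).

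Genes known as outputs of ERK signalling went both ways. Of 32 measured, 10 fell (31.2%, against 17.4% of all probes), 5 rose (15.6%, against 13.0%) and 17 did not pass. The list median was −0.22, or −0.05 after quantile normalization. The falls included feedback genes that are normally raised by ERK. Spry4, a Sprouty inhibitor, read 8.19, 8.29 and 8.38 with DMSO and 5.72, 6.05 and 6.20 with EHT-1864, of which 1 was above the floor. It did not overlap and fell by 2.30 (SE 0.16, limma adjusted p = 8.01e-07). Dusp6, the phosphatase of ERK, fell by 2.19 (SE 0.16), from 9.75, 9.82 and 9.70 to 7.57, 7.33 and 7.80, without overlap. The zinc finger factors Egr1 and Egr2 fell by 2.26 (SE 0.14) and by 2.24 (SE 0.17), and the ETS factor Etv5 fell by 1.27 (SE 0.12).

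In the same list, Jun read 8.36, 8.40 and 8.27 with DMSO and 10.59, 10.75 and 10.24 with EHT-1864. This subunit of AP-1 rose by 2.18 ± 0.13 (4.54-fold, limma adjusted p = 3.07e-07), and no array overlapped. The MAP kinase phosphatases Dusp1 and Dusp4 rose by 1.33 ± 0.17 and 1.41 ± 0.23. Fos, the usual partner of Jun, read 9.34, 9.44 and 9.36 with DMSO and 9.37, 9.76 and 9.01 with EHT-1864, with overlap and a change of 0.00 ± 0.17. Of 19 ERBB receptors, ligands and adaptors, 4 fell (21.1%, against 17.4% of all probes) and 2 rose (10.5%, against 13.0%). Their median was 0.14, and −0.18 with dim genes at their bound. Erbb3 fell by 1.33 (SE 0.14), from 8.60 on each DMSO array to 7.47, 6.94 and 7.39. Erbb2 was at least 2.09-fold lower (limma adjusted p = 6.2e-04), and Nrg1, a ligand of ERBB receptors, was at least 1.57-fold higher (limma adjusted p = 4.69e-06). Mouse Egfr was below the floor in all groups.

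The largest rise was that of Scg2, the granin secretogranin II of secretory vesicles. Scg2 read 2.40, 3.06 and 3.20 with DMSO, all below the floor, and 8.61, 9.19 and 8.21 with EHT-1864, all above it. It was at least 8.32-fold higher (limma adjusted p = 6.78e-08), with measured means of 2.89 and 8.67. In normoxia and with BFA it was below the floor as well, at means of 2.81 and 4.27. Its start region is shown because it holds the cAMP response element TGACGTCA, in capitals, in a 100-base stretch of RefSeq (GRCm38.p6, chr1:79440045-79440144, minus strand).
Scg2: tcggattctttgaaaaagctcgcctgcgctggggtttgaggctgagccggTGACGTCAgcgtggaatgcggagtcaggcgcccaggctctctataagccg
Scg2 was 1 of 14 genes with a window among the 20 largest rises that held this element (7.14%), as did 1 of 15 among the 20 largest falls (6.67%) and 2.63% of the genes of the array.

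Other rises also started below the floor with DMSO and ended above it with EHT-1864. Gem, a small GTPase that restrains calcium channels, read 3.48, 3.45 and 3.48 with DMSO and 7.70, 8.02 and 7.34 with EHT-1864. All 3 DMSO arrays were below the floor, and Gem was at least 4.20-fold higher (limma adjusted p = 3.15e-08). Bdnf, a neurotrophin, went from 4.18, 4.20 and 3.95 to 7.24, 7.68 and 6.64 and was at least 2.97-fold higher (limma adjusted p = 7.03e-06). Ppargc1a, the coactivator PGC-1α of mitochondrial genes, read 5.44, 5.37 and 5.35 with DMSO and 9.00, 8.60 and 8.76 with EHT-1864. It was at least 9.02-fold higher (limma adjusted p = 7.24e-07).

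Transcription factors and stress genes also rose from levels that could be measured. Klf6, a zinc finger factor, read 7.64, 7.77 and 7.61 with DMSO and 10.43, 10.58 and 10.27 with EHT-1864. It did not overlap and rose by 2.75 ± 0.12 (6.73-fold, limma adjusted p = 3.17e-08). Gadd45b, a growth arrest gene that activates stress kinases, rose by 3.06 ± 0.15, from 6.62, 6.61 and 6.55 to 9.63, 9.95 and 9.36. Its relative Gadd45g rose by 1.97 ± 0.11. Odc1, the first enzyme of polyamine synthesis, rose by 1.97 ± 0.13, from 7.91, 8.31 and 8.03 to 10.07, 9.96 and 10.12. All of these arrays lay apart by group.

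**Figure D3:**
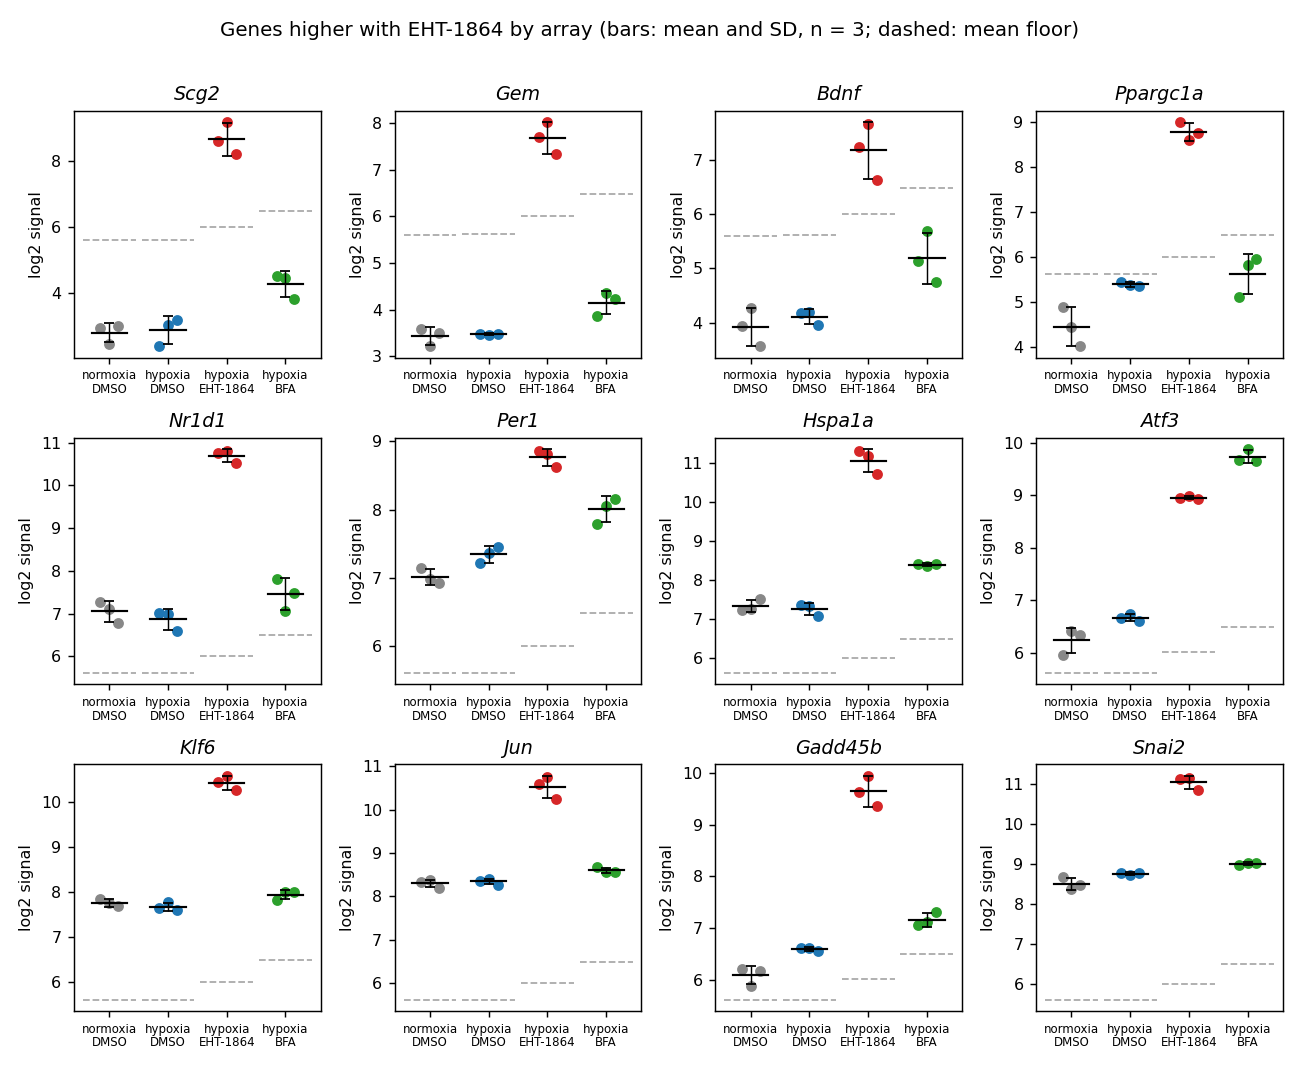
Each panel shows the log2 signal of a gene that was higher with EHT-1864 on the 3 arrays of each of the 4 groups, with the mean and SD as black bars and the mean floor of the group as a dashed line. Scg2, Gem, Bdnf and Ppargc1a lie below the floor in all groups other than EHT-1864, and Atf3 is higher with BFA than with EHT-1864.

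Among heat shock genes, the largest changes were those of the inducible Hsp70 genes. Hspa1a read 7.35, 7.34 and 7.07 with DMSO and 11.30, 11.17 and 10.73 with EHT-1864, a rise of 3.81 ± 0.15 (14.0-fold, limma adjusted p = 2.33e-08) without overlap. Hspa1b rose by 3.85 ± 0.14, but the sequences of the pair are nearly identical, so their signals cannot be told apart. Of 18 heat shock genes, 5 rose (27.8%, against 13.0% of all probes) and 0 fell (against 17.4%). The list median was 0.09, or 0.16 after quantile normalization. The cytosolic chaperone Hsp90aa1 rose by 0.61 ± 0.11 and the mitochondrial chaperonin Hspe1 by 0.48 ± 0.11. Dnajb1, a cochaperone that heat shock also induces, differed by −0.32 ± 0.12 (limma adjusted p = 0.0593), a fall that passed in the fits that left out dim probes. The start region of Hspa1a is shown with its heat shock element GAANNTTC in capitals (chr17:34972211-34972310, minus strand, RefSeq, GRCm38.p6).
Hspa1a: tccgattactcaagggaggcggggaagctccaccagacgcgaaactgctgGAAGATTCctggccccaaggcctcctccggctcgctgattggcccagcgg
The element lay in the window of 9 of 16 heat shock genes (56.2%) and of 8.10% of the genes of the array. The list is one of known heat shock genes, so its share does not bear on EHT-1864.

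The circadian clock list moved in both directions. Nr1d1, which encodes the repressor REV-ERBα, read 7.02, 6.98 and 6.59 with DMSO and 10.76, 10.81 and 10.52 with EHT-1864. It did not overlap and rose by 3.84 ± 0.20 (14.3-fold, limma adjusted p = 8.92e-08). Nr1d2, its relative, rose by 2.00 ± 0.15, and Per1, a period gene, by 1.42 ± 0.13. Activators of the clock were lower, and a link to the repressors was not tested. Arntl fell by 0.83 (SE 0.13), from 8.17, 8.11 and 8.18 to 7.41, 7.25 and 7.31, and Clock fell by 0.57 (SE 0.13). Npas2 passed as lower too (limma adjusted p = 5.82e-05), but all its EHT-1864 arrays were below the floor. Of 18 clock genes, 7 rose (38.9%, against 13.0% of all probes), 3 fell (16.7%, against 17.4%) and 8 did not pass. The list median was 0.22 (0.42 after quantile normalization).

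Most genes of oligodendrocyte progenitors were lower. The cells carried these transcripts at high levels, and 22 of 23 measured progenitor genes were above the floor on all DMSO arrays. Of the 23, 15 fell (65.2%, against 17.4% of all probes), 1 rose (4.35%, against 13.0%) and 7 did not pass. The list median was −0.58. Olig2, the transcription factor that specifies the lineage, read 11.43, 11.44 and 11.45 with DMSO and 9.07, 9.14 and 9.02 with EHT-1864. The groups lay far apart, and Olig2 fell by 2.36 (SE 0.11, 5.14-fold, limma adjusted p = 3.85e-08). Such values cannot tell fewer cells of a type from less RNA per cell. Dll3, a Notch ligand of these progenitors, fell by 2.29 (SE 0.14), from 9.60, 9.78 and 9.77 to 7.71, 7.35 and 7.23. The receptor Gpr17 fell by 2.21 (SE 0.14), Sox8 fell by 1.71 (SE 0.16) and Olig1 fell by 1.36 (SE 0.16). Sox10, which marks the whole lineage, fell less, by 0.50 (SE 0.12), from 10.34, 10.69 and 10.64 to 10.11, 10.06 and 9.99. Nkx6-2 was the member that rose, at least 1.52-fold (limma adjusted p = 2.08e-05).

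Myelin and neural stem cell genes were measured beside these. Of 18 myelin genes, 7 fell (38.9%, against 17.4% of all probes), 2 rose (11.1%, against 13.0%) and 9 did not pass. Below the floor in both groups lay 9 of the 18, among them 1 of the rises. The list median was 0.12 (0.05 after quantile normalization), and −0.55 with dim genes at their bound. Fa2h, a lipid hydroxylase of myelin, fell by 1.75 (SE 0.20), and Cldn11, a tight junction protein of myelin, rose by 0.93 ± 0.11. Mbp, a main myelin protein, differed by −0.28 ± 0.11 (limma adjusted p = 0.0664), a fall that passed after quantile normalization (−0.34, limma adjusted p = 0.0263). Of 30 neural stem cell genes, 8 fell (26.7%, against 17.4% of all probes) and 4 rose (13.3%, against 13.0%). Their median of −0.04 turned to 0.16 under quantile normalization and to 0.01 after median subtraction. Sox2 fell by 0.78 (SE 0.13), and the filament gene Nes fell by 0.93 (SE 0.18). Sox9 and Cd44 rose by 0.91 ± 0.18 and 1.33 ± 0.14.

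Of 37 genes of the Notch, BMP and TGF beta pathways, 12 fell (32.4%, against 17.4% of all probes) and 4 rose (10.8%, against 13.0%). Of the rises, 1 lay below the floor in both groups. The list median was −0.07, or 0.06 after quantile normalization. Ligands of Notch were among the falls. Dll1 was at least 1.79-fold lower (limma adjusted p = 8.58e-06), from 6.97, 6.74 and 6.83 to measured values of 5.05, 4.61 and 4.93. Tgfbr1, a receptor of TGF beta, fell by 1.30 (SE 0.19), and Bambi, a decoy receptor of the same family, rose by 1.30 ± 0.21.

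Of 40 adhesion and matrix genes, 8 rose, 9 fell and 23 did not pass (median −0.08, or −0.02 after quantile normalization). Of all probes, 13.0% were higher and 17.4% lower. The 8 rises and the 9 falls (22.5%) of this list were both larger shares, the rises by the wider margin. Of these falls, 1 was below the floor on all arrays of both groups. Cdh1, the epithelial cadherin, read 5.11, 4.89 and 5.06 with DMSO, all below the floor, and 7.88, 7.56 and 7.52 with EHT-1864. It was at least 4.11-fold higher (limma adjusted p = 9.81e-08). Snai2, a repressor of Cdh1 known as Slug, rose as well, by 2.29 ± 0.12, from 8.77, 8.72 and 8.79 to 11.14, 11.16 and 10.87. Neither overlapped between groups. Cdh2, the neural cadherin, fell by 0.79 (SE 0.17), and the integrin subunit Itgav fell by 1.29 (SE 0.11). Fn1, the matrix protein fibronectin, rose by 1.59 ± 0.20, and Timp3, an inhibitor of metalloproteinases, rose by 0.96 ± 0.15. Outside the list, Has2, which makes hyaluronan, fell by 2.46 (SE 0.19), Igfbp5 fell by 2.75 (SE 0.18), and Col2a1, a fibrillar collagen, fell by 2.80 (SE 0.16). Of 39 axon guidance genes, 11 fell (28.2%, against 17.4% of all probes) and 4 rose (10.3%, against 13.0%). Below the floor in both groups lay 1 of these falls and 1 of these rises. The list median was −0.13, or 0.04 after quantile normalization. The receptor Ephb1 fell by 1.24 (SE 0.18), while Epha3 rose by 1.69 ± 0.14 and Epha7 was at least 2.34-fold higher (limma adjusted p = 3.5e-04).

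**Figure D4:**
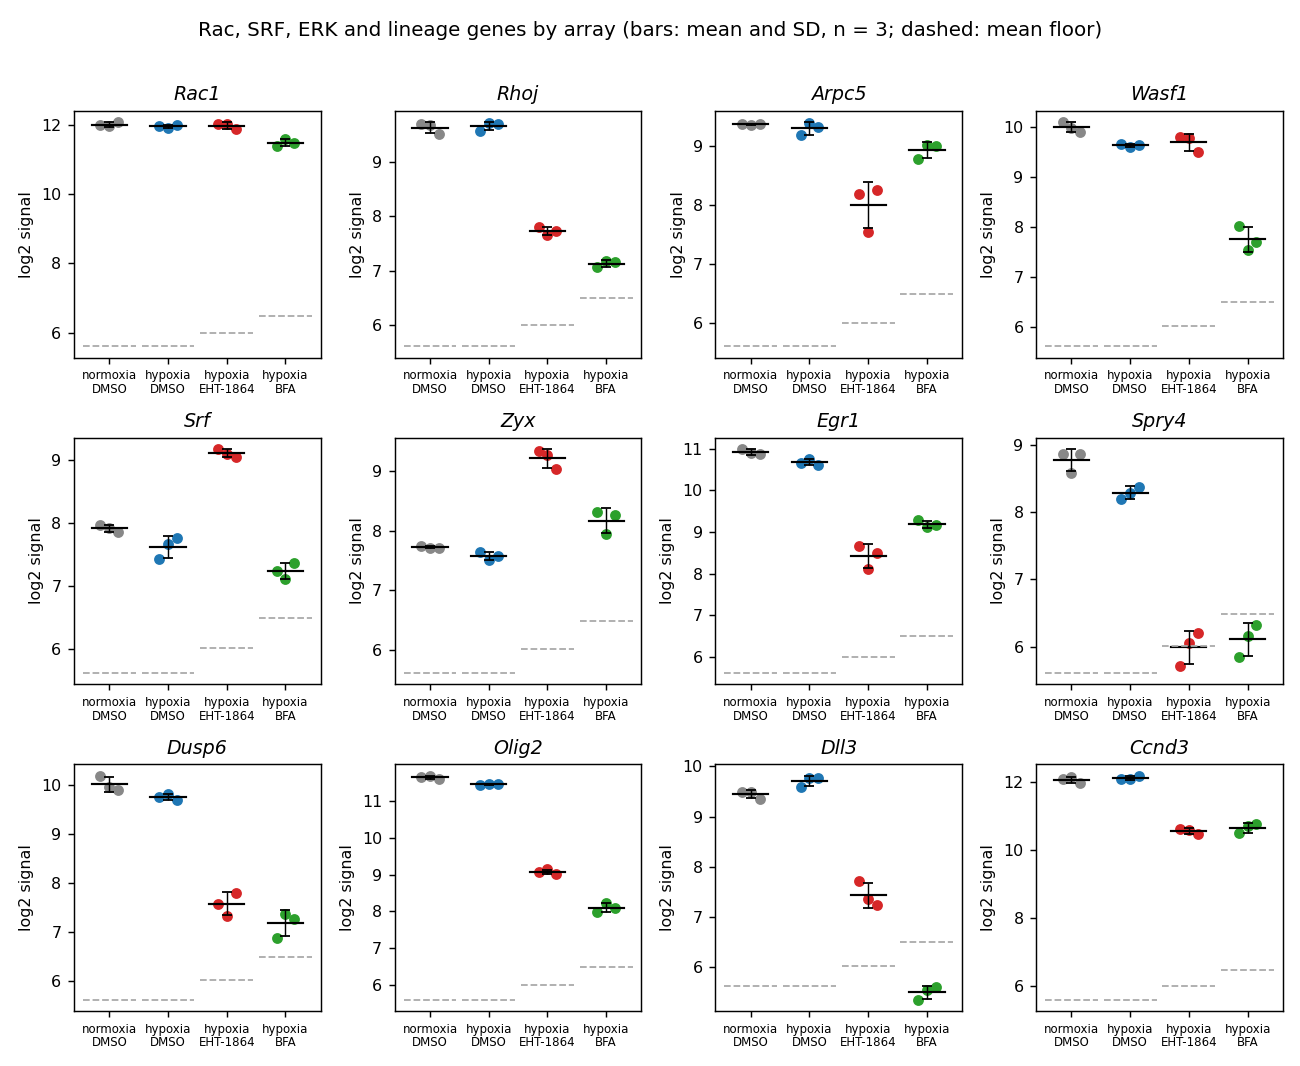
Each panel shows the log2 signal of a gene on the 3 arrays of each of the 4 groups, with the mean and SD as black bars and the mean floor of the group as a dashed line. With EHT-1864, Rac1 and Wasf1 overlap with the DMSO arrays, Srf and Zyx lie above them, and Rhoj, Arpc5, Egr1, Spry4, Dusp6, Olig2, Dll3 and Ccnd3 lie below.

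Among cell cycle genes, cyclins of the G1 phase were lower. Of 15 D cyclins, cyclin-dependent kinases and their inhibitors, 8 fell (53.3%, against 17.4% of all probes) and 1 rose (6.67%, against 13.0%). The list median was −0.46, or −0.28 after quantile normalization. Ccnd3, cyclin D3, read 12.09, 12.11 and 12.20 with DMSO and 10.63, 10.60 and 10.48 with EHT-1864, and fell by 1.56 (SE 0.12, limma adjusted p = 1.61e-06). The groups did not overlap. Ccnd2 was at least 1.54-fold lower (limma adjusted p = 1.31e-05). The inhibitors Cdkn1a and Cdkn2c also fell, by 1.17 (SE 0.14) and by 1.06 (SE 0.12). Of 43 G1/S and replication genes, 9 fell (20.9%, against 17.4% of all probes) and 7 rose (16.3%, against 13.0%), with a median of 0.14. After quantile normalization, however, 6 fell and 17 rose (median 0.25). The E cyclins Ccne2 and Ccne1 fell by 1.61 (SE 0.16) and by 1.21 (SE 0.20), and Rrm2, a subunit of ribonucleotide reductase, fell by 1.23 (SE 0.19). Mcm4, a subunit of the replicative helicase, rose by 0.81 ± 0.16. Of 41 G2/M genes, 7 fell (17.1%, against 17.4% of all probes) and 4 rose (9.76%, against 13.0%), and after quantile normalization 6 fell and 7 rose. The median of −0.04 turned to 0.08 after quantile normalization and to 0.01 after median subtraction. The mitotic kinase Aurkb fell by 0.96 (SE 0.13) and cyclin A2 (Ccna2) fell by 0.80 (SE 0.13). Mki67, a marker of cycling cells, read 10.63, 10.28 and 10.28 with DMSO and 10.51, 10.63 and 10.20 with EHT-1864, with overlap and a change of 0.05 ± 0.15 (limma adjusted p = 0.833).

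Genes listed as p53 targets changed although all groups lack p53. Of 24 measured, 9 fell and 6 rose, both larger shares than the 17.4% lower and 13.0% higher of all probes. However, 2 of these rises stayed below the floor on every array compared. The list median was −0.09. With arrays normalized by quantiles again, 7 fell and 5 rose, and the median turned to 0.06. Cdkn1a and the cyclin-like gene Ccng1, which fell by 1.14 (SE 0.12), were among the falls, and Gadd45b and Gadd45g among the rises. Myc differed by −0.10 ± 0.11 (limma adjusted p = 0.533). Of 26 MYC and ribosome biogenesis genes, 7 rose (26.9%, against 13.0% of all probes) and 4 fell (15.4%, against 17.4%). The list median was 0.16, and after quantile normalization 11 rose and 4 fell (median 0.33). The nucleolar protein Nop58 rose by 0.80 ± 0.11. Of 13 ribosomal protein genes, 1 rose (7.69%, against 13.0% of all probes) and 12 did not pass (median 0.20, or 0.12 after quantile normalization). The rise of Rpl8 ended without any 1 of the 6 arrays compared.

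Among metabolic genes, those of lipid synthesis were lower. Of 28 cholesterol and fatty acid synthesis genes, 21 fell (75.0%, against 17.4% of all probes), 0 rose (against 13.0%) and 7 did not pass. The list median was −0.48. After quantile normalization 18 fell, and after median subtraction 17. Hmgcs1, the synthase at the start of the sterol pathway, read 11.39, 11.40 and 11.33 with DMSO and 10.35, 10.21 and 10.12 with EHT-1864. It did not overlap and fell by 1.15 (SE 0.12, limma adjusted p = 2.08e-05). The epoxidase Sqle fell by 1.30 (SE 0.14), the fatty acid synthase Fasn fell by 1.32 (SE 0.14) and the malic enzyme Me1, which supplies reducing power, fell by 1.52 (SE 0.12). Of 33 genes of the TCA cycle and oxidative phosphorylation, 6 rose (18.2%, against 13.0% of all probes) and 1 fell (3.03%, against 17.4%). The list median was 0.20. The complex I subunit Ndufb5 rose by 0.75 ± 0.11, from 8.47, 8.57 and 8.42 to 9.24, 9.22 and 9.24, and Ndufa2 rose by 0.51 ± 0.11. Txnip, a glucose-regulated arrestin that limits glucose uptake, fell by 2.83 (SE 0.17), from 10.07, 9.89 and 9.80 to 7.03, 7.38 and 6.87. Its relative Arrdc3 went the other way and rose by 2.00 ± 0.11, while Arrdc4 fell by 0.88 (SE 0.12). None of these genes overlapped between groups. Of the 24 genes of lipid droplets and FOXO targets to which these belong, 10 fell (41.7%, against 17.4% of all probes). In the same list 5 rose (20.8%, against 13.0%), and the median was 0.02. After quantile normalization 7 fell and 7 rose. The ubiquitin ligase Fbxo32 rose by 1.23 ± 0.16.

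Stress genes moved in both directions. Of 41 ATF4 and integrated stress response genes, 11 fell (26.8%, against 17.4% of all probes) and 4 rose (9.76%, against 13.0%). The other 26 did not pass, and the list median was −0.12. After quantile normalization 11 fell and 7 rose (median −0.04). Atf3 read 6.65, 6.74 and 6.61 with DMSO and 8.94, 8.98 and 8.92 with EHT-1864, and rose by 2.28 ± 0.13 (limma adjusted p = 2.36e-07). Ddit3, which encodes CHOP, rose by 1.66 ± 0.16. Their regulator Atf4 differed by 0.15 ± 0.12 (limma adjusted p = 0.354), and Asns, the asparagine synthetase that ATF4 induces, by −0.12 ± 0.15 (0.606). Slc7a11, the cystine transporter, fell by 1.66 (SE 0.18), from 8.18, 8.14 and 8.14 to 6.61, 6.08 and 6.79. Of 22 NRF2 antioxidant genes, 11 fell (50.0%, against 17.4% of all probes) and 5 rose (22.7%, against 13.0%). Of the rises, 2 lay below the floor in both groups. The list median was −0.38, or −0.25 after quantile normalization. Gclc, the first enzyme of glutathione synthesis, fell by 1.35 (SE 0.13), and Nqo1 was at least 1.40-fold lower (limma adjusted p = 6.77e-04). The autophagy receptor Sqstm1 rose by 0.89 ± 0.10. Of 30 autophagy and lysosome genes, 11 rose (36.7%, against 13.0% of all probes) and 5 fell (16.7%, against 17.4%). The list median was 0.15, and after quantile normalization 13 rose and 0 fell (median 0.33). Gabarapl1, a protein of the autophagosome membrane, rose by 1.37 ± 0.11, from 9.37, 9.19 and 9.33 to 10.64, 10.66 and 10.70, without overlap. The proton pump subunit Atp6v1a rose by 0.91 ± 0.13 and the lysosomal membrane protein Lamp1 by 0.73 ± 0.11.

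Part of the secretory pathway was lower. Of 28 ER chaperones and ERAD genes, 11 fell (39.3%, against 17.4% of all probes) and 2 rose (7.14%, against 13.0%). The list median was −0.21, or −0.12 after quantile normalization. Hspa5, the chaperone BiP, read 12.01, 12.03 and 12.04 with DMSO and 11.36, 11.34 and 11.44 with EHT-1864. It did not overlap and fell by 0.65 (SE 0.10, limma adjusted p = 4.33e-04). The disulfide isomerase Pdia6 fell by 1.00 (SE 0.12) and the transcription factor Xbp1 fell by 0.92 (SE 0.16). Of 37 Golgi, COPI and COPII genes, 13 fell (35.1%, against 17.4% of all probes) and 0 rose (against 13.0%). Of the falls, 1 lay below the floor in both groups, and the list median was −0.19. Kdelr3, which returns proteins from the Golgi to the ER, fell by 1.55 (SE 0.13), from 8.16, 8.16 and 8.22 to 6.69, 6.51 and 6.69. The COPII coat subunit Sec24d fell by 1.22 (SE 0.15).

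Few immune genes were bright enough to measure. Of 23 NF-kB and cytokine genes, 6 rose (26.1%, against 13.0% of all probes), 3 of them below the floor in both groups. There were 2 falls (8.7%, against 17.4%), 1 of them below the floor in both groups. The list median was 0.30, and 8 genes were above the floor on some array of either group. The prostaglandin synthase Ptgs2 was at least 1.85-fold higher (limma adjusted p = 6.39e-06), from 4.66, 4.52 and 4.13 below the floor to 6.64, 6.67 and 6.20. The NF-kB inhibitor Nfkbia rose by 0.96 ± 0.14. Of 26 interferon response genes, 4 rose (15.4%, against 13.0% of all probes) and 2 fell (7.69%, against 17.4%). Of the rises, 2 lay below the floor in both groups, as did 18 of the 26 genes. The list median was −0.08, or 0.00 with dim genes at their bound. With arrays normalized by quantiles again, 2 rose and 1 fell. Ifit3 read 3.03, 3.54 and 2.55 with DMSO and 7.31, 7.91 and 6.44 with EHT-1864. The DMSO arrays lay below the floor, and Ifit3 was at least 3.05-fold higher (limma adjusted p = 1.43e-05). Its relative Ifit1 stayed below the floor on all arrays of both groups.

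**Figure D5:**
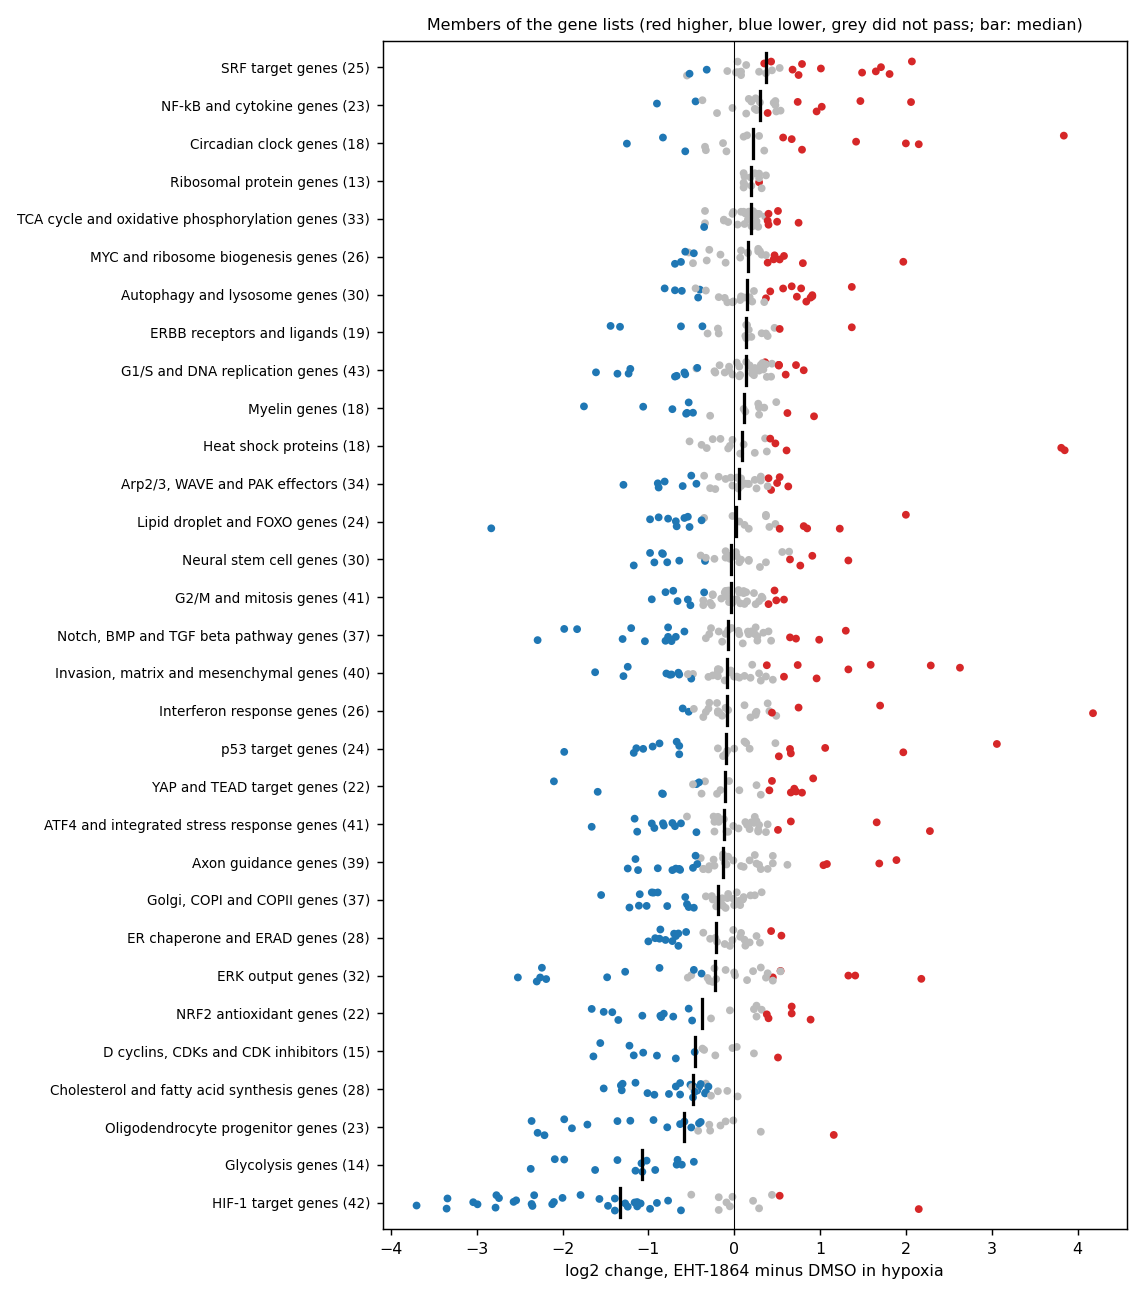
Each point is a gene of the list named at the left, with the number of measured members in brackets, and the horizontal axis is the log2 change, EHT-1864 minus DMSO in hypoxia. Red points rose, blue points fell and grey points did not pass, and black bars are medians, from −1.33 for HIF-1 targets to 0.37 for SRF targets.

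Markers of other cell types, apart from astrocytes, were mostly dark. Of the markers, 11 of 12 for microglia and macrophages, 10 of 12 for endothelial cells, 9 of 12 for fibroblasts and pericytes and 10 of 15 for neurons were below the floor in both groups. The mean log2 signal of the astrocyte list was 6.72 to 6.80 on the DMSO arrays and 6.39 to 6.48 on the EHT-1864 arrays. The other lists had means of 3.50 to 3.69 and 3.77 to 3.85 (microglia), 3.87 to 3.92 and 3.99 to 4.13 (endothelium), 4.19 to 4.44 and 4.50 to 4.66 (fibroblasts) and 4.99 to 5.13 and 4.91 to 4.96 (neurons) with DMSO and EHT-1864. The astrocyte transporter Slc1a3 fell by 1.12 (SE 0.19). Gfap, the defining filament of astrocytes, was below the floor on all arrays of both groups. Of the 11 astrocyte markers, 5 were below the floor in both groups and 6 were above it on all DMSO arrays. In this list 4 fell (36.4%, against 17.4% of all probes), 1 of them below the floor in both groups. The 1 rise was Sox9 (9.09%, against 13.0%). S100b had means of 9.68 with DMSO and 9.42 with EHT-1864 and did not pass (limma adjusted p = 0.143). With array weights S100b passed as lower (limma adjusted p = 0.0474). The part of these markers in the other results was not tested.

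EHT-1864 was also set directly against BFA, a difference of group means that leaves out the DMSO arrays, although these enter the shared estimate of the spread. The BFA arrays stood further from the DMSO arrays than the EHT-1864 arrays did, with an SD of log2 values of 2.22 to 2.32, a floor of 6.37 to 6.65, 63.2 to 67.9% of probes below it and hybridization controls of 10.8 to 11.1. In the fit with array weights, BFA arrays 1 and 2 had weights of 0.304 and 0.49. The part of these shifts in the values below was not tested. Of all probes, 19.6% were higher and 16.9% lower with EHT-1864 than with BFA. Against DMSO in hypoxia, BFA itself raised 26.1% and lowered 24.6% of probes. Counts of BFA against DMSO are given beside the lists below and share the BFA arrays with the direct comparison. Of the 28 ER chaperone and ERAD genes, 26 were lower with EHT-1864 than with BFA and 0 higher (median −1.33). BFA itself raised 24 of them and lowered 0 against DMSO (median 1.05). Of the 23 oligodendrocyte progenitor genes, 22 were higher with EHT-1864 than with BFA (median 1.38). Against DMSO, BFA lowered 21 of them and raised 0 (median −2.47). Both groups lay below DMSO for Olig2. Olig2 had a mean of 9.08 with EHT-1864 and 8.10 with BFA, a difference of 0.97 (limma adjusted p = 1.22e-05). Of the 41 G2/M genes, 37 were higher with EHT-1864 than with BFA (median 0.86). BFA lowered 37 of the 41 and raised 0 against DMSO (median −0.95), while the median of EHT-1864 against DMSO was −0.04. Of the 25 SRF targets, 17 were higher and 2 lower with EHT-1864 than with BFA (median 0.89). Here BFA lowered 12 and raised 5 against DMSO (median −0.30). Of the 42 HIF-1 targets, 30 were lower with EHT-1864 and 5 higher (median −0.72). Among the lower were P4ha2 at −2.45 and Pdk1 at −1.88. BFA also lowered 25 of the 42 and raised 5 against DMSO (median −0.61).

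Single genes were taken only from those that also passed in EHT-1864 against DMSO, so larger differences from BFA may exist among other genes. Fgf21, a hormone of the stress response, had a mean of 11.33 with BFA and lay below the floor on all EHT-1864 arrays. It was at least 40.1-fold lower with EHT-1864 than with BFA (limma adjusted p = 1.21e-08), with a measured mean of 4.63. The proline isomerase of the ER Fkbp14 was 3.19 lower with EHT-1864 than with BFA (log2 difference −3.19, limma adjusted p = 1.99e-08). Mest, an imprinted gene, read 11.60, 11.01 and 11.32 with EHT-1864, against 9.66, 9.63 and 9.70 with DMSO and a mean of 7.28 with BFA. Arrays of the 3 groups did not overlap, and Mest was 4.03 higher with EHT-1864 than with BFA (limma adjusted p = 5.88e-08). Scg2 was at least 4.53-fold higher (limma adjusted p = 1.3e-07), since its BFA arrays lay below the floor. Atf3 was lower with EHT-1864 than with BFA, by −0.79 (limma adjusted p = 4.5e-04), though both compounds had raised it.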

How the data were processed

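RNA of 12 samples was hybridized to Clarion S mouse arrays. Per the submitters' processing notes, the deposited log2 values were made by the authors with RMA in Affymetrix Expression Console; RMA is a method that corrects background, normalizes arrays by quantiles and summarises probes. Versions and further settings are not given in the sources used here. Of 28846 rows, 6640 control rows were left out, and 22206 transcript clusters were tested. There were 0 columns of other samples. No 2 arrays held identical values. Symbols came from the platform table (19572 clusters with 1 symbol, all matched by Entrez number, and 2634 without).

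limma 3.58.1 in R 4.3.3 was fitted to all 12 arrays, which share an estimate of the spread, with 4 group means, and p-values were adjusted by Benjamini-Hochberg over all clusters (threshold 0.05). A gene with several clusters was represented by the brightest. For a gene that no array of a group shows above the floor, the fold is a bound ("at least"): the mean of the bright group against the mean, per array, of the floor or the gene's own value if higher. The precision is limited by 3 arrays a group.

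Genes named are, per direction, the 20 largest changes without overlap that were above the floor in a group, up to 4 members with the smallest adjusted p per list, a set of Rac, hypoxia and lineage genes, and the 6 largest differences from BFA per direction (188 genes). The differences from BFA were ranked only among genes that passed against DMSO. A further 66 were chosen after their values were seen. Genes of unsure function were left out of the text. Results of 3 gene lists are not reported here. The comparison and the lists were chosen with earlier results of these data known. Alternatives changed the normalization, the filter on dim clusters, the variance model, the array weights, the arrays in the fit and the replicate block, and left out each array in turn. The fit on all arrays but BFA was chosen after seeing the data.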

Additional observations from a re-analysis of the deposited data

Results flagged for a closer look

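The 4 hybridization control probes, which lie outside the comparisons of transcripts, had a mean log2 value of 10.25 on the EHT-1864 arrays, above the mean of 9.76 on the DMSO arrays in hypoxia. Their part in the differences between the groups was not tested.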

How the results depend on the processing

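The counts of probes called stayed within 1.5 times under every alternative run: 4986 to 7806 for EHT-1864 against DMSO when an array was left out and 5877 to 8287 otherwise, and 6900 to 8280 and 6045 to 8403 against BFA. With the replicate block, 6349 probes passed against DMSO (2684 higher, 3665 lower) and 7816 against BFA. Whether array numbers mark shared cultures is not known. Deviations of same-numbered arrays correlated at −0.18 to 0.17 (18 pairs) and of others at −0.158 to 0.169 (36 pairs). Between DMSO and EHT-1864 in hypoxia they correlated at 0.006 to 0.062 (3 pairs) and −0.074 to 0.035 (6 pairs). With 3 arrays a group, such values cannot settle the question.

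Of 5554 values of named genes under the alternatives, 5462 kept direction and call, 49 lost the call, 31 gained it and 12 changed sign, all of the last in Rac1, Fos and Mki67, which did not pass. Rac1 was −0.00 with array weights and −0.07 after quantile normalization, and −0.01 to 0.07 when an array was left out. Fos was −0.09 with array weights and −0.19 to 0.18 when an array was left out, and Mki67 was −0.04 to 0.17. Of 858 values of the medians of gene lists, 101 moved by at least their SD between arrays. The cause was not tested. Depth is not defined for arrays, and probes near the floor have no reliable order.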
